A study of Mus musculus with 2 samples.

Results

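The genes described here are the nuclear genes of oxidative phosphorylation in mouse testis cells, with the isoforms of their subunits that are made in male germ cells. They were chosen by a rule on gene symbols, which was set with earlier results of these data known. It took every symbol of the families Nduf, Sdha to Sdhd, Uqc, Cox4 to Cox8 and Atp5, together with Cycs and Cyct, and without the Ndufaf assembly factors. The rule gave 93 of 25065 symbols. Of these, 70 could be tied to 1 row of the count matrix and are used: 30 of 36 genes of complex I, 2 of 4 of complex II, 8 of 8 of complex III, 14 of 17 of complex IV, 13 of 15 of complex V, 1 of 2 cytochrome c genes, and 2 of 4 genes that carry the family name without being a subunit. The 23 symbols not used have between 2 and 57 possible rows. They include Sdhc and Sdhd of complex II, Cox6a2, Cox7a1 and Cox8a of complex IV, Atp5g2 and Atp5l of complex V, Cycs, the cytochrome c gene of other tissues, and 6 pseudogenes. The study compared 2 single-cell libraries from the testes of adult C57BL/6 mice (the substrain C57BL/6N in the study's methods), each made from pooled testes that had been digested with collagenase I. The KO library came from mice in which all exons of Tex13a, an X-linked gene, had been removed by CRISPR-Cas9, and the WT library from normal mice. The cells were grouped by the authors into 13 clusters, named from Sg (spermatogonia) over Sc1 and Sc2 (spermatocytes) to Sd1, which mixes spermatocytes with early spermatids, and Sd2 to Sd10 (spermatids).

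Oxidative phosphorylation makes ATP in the inner mitochondrial membrane. Complexes I to IV pass electrons from NADH and succinate to oxygen, and all of them but complex II pump protons. Cytochrome c carries electrons from complex III to complex IV, and complex V is the ATP synthase. All but complex II combine subunits encoded in the mitochondrial DNA with a larger number encoded in the nucleus. Male germ cells replace several nuclear-encoded parts with versions of their own, among them Cyct for Cycs, Cox6b2 for Cox6b1, Cox7b2 for Cox7b and Cox8c for Cox8a, and the mature sperm carries a sheath of mitochondria in its midpiece.

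There were 5170 WT cells with 45568532 UMIs and 7238 KO cells with 67734689 UMIs, and a cluster held between 749010 and 12722633 UMIs. A UMI marks 1 captured transcript end, so that levels are given as counts per 1000000 UMIs (CPM) of a library's cluster, with no division by transcript length. There was 1 library per genotype and therefore no test: intervals are exact 95% intervals of the UMI counts, cover counting error only, and cannot tell the genotype from the library. The libraries shared 0 cell barcodes. The gene list is shorter than the matrix, and a symbol was used where only 1 row could hold it if only rows seen in under 5 cells had lost their name. Without that condition 35 of the 70 genes keep 1 row, and the other 35, among them Cox7b2, Cox7b, Ndufa4l2, Sdha, Sdhb, Ndufb7, Ndufa13, Atp5g1, Atp5g3, Ndufs5 and Uqcrq, rest on it. How reads shared with pseudogenes were counted is not given in the sources used here. The symbol Tex13a has 7 possible rows, so that its loss in KO could not be checked here. The named clusters carried the markers of their stage: Uchl1 was highest in Sg, Stra8 and Sycp3 in Sc1, Piwil1 in Sc2 and Prm1 in Sd8, in both libraries. The usable Leydig and peritubular markers, 1 each, stayed between 0 and 14.01 CPM, and no Sertoli or endothelial marker was usable. The 2 red blood cell markers summed to between 1.89 CPM (Sd1 of WT) and 615 CPM (Sd8 of KO). RNA of other cells was also present: Prm1, a gene of late spermatids, reached in Sg 13.5% of its Sd8 level in WT and 13.04% in KO, so that a low level of any abundant transcript in a cluster cannot be told apart from free RNA. 9 of 184 WT and 18 of 278 KO cells of Sd10 had under 5% of their UMIs in Prm1 and Prm2.

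The isoform pairs differed in position as well as in sequence. In GENCODE vM21 (GRCm38), Cox6b1 lies at chr7:30616861-30626151 and Cox6b2 at chr7:4751792-4753094, both on the minus strand. Cox7b lies on the X chromosome, at chrX:106015700-106022450 on the plus strand, and was the only X-linked gene among the 70. Cox7b2 lies at chr5:71442824-71548205 on the minus strand, Cox8c at chr12:102899316-102900526 on the plus strand and Cyct at chr2:76353942-76360450 on the minus strand. The bases before the RefSeq start sites of 5 of these genes (GRCm38.p6) are shown 5′ to 3′ because the pairs below went in opposite directions at the same step. They stand at chr7:30626152-30626364 for Cox6b1, chr7:4753095-4753344 for Cox6b2, chrX:106015450-106015699 for Cox7b, chr5:71548206-71548455 for Cox7b2 and chr2:76360454-76360703 for Cyct. For Cox6b1, 37 bases that GENCODE places inside the gene were left out. Capitals mark the short form of the cyclic AMP response element (TGACG on either strand).
Cox6b1: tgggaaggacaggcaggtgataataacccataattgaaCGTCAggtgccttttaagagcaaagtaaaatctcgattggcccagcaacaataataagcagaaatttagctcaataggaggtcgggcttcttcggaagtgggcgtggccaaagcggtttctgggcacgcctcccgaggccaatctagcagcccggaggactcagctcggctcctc
Cox6b2: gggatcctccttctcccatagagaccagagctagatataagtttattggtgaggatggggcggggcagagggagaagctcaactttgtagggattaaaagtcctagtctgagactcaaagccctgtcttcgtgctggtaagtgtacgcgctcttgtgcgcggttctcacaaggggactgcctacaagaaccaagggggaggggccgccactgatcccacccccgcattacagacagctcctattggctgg
Cox7b: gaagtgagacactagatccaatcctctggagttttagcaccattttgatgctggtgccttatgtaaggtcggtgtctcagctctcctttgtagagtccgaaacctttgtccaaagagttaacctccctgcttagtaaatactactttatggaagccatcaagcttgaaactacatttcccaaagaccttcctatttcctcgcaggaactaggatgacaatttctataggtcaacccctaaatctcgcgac
Cox7b2: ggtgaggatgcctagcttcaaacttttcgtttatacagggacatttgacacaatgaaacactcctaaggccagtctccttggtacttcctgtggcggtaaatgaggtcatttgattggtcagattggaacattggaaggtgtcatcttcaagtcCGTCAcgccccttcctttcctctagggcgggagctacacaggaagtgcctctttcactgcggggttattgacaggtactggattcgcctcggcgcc
Cyct: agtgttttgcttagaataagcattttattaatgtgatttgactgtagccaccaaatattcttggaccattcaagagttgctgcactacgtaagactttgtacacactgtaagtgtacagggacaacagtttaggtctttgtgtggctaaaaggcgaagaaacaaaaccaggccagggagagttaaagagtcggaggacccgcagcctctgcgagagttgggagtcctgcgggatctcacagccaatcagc
This motif stood at position -212 of Cox6b1 and at -96 of Cox7b2, counted from the start site, and no motif searched was found in the windows of Cox6b2, Cox7b and Cyct. The motifs searched on both strands were that of NRF1 (GCGCATGC), an ETS motif (CCGGAAGT), the full cyclic AMP response element (TGACGTCA, which contains the short form), the short form itself and a short RFX motif (GTTGCC). Of the 70 genes, 59 had a promoter entry, with 64 promoters of 250 bases. The NRF1 motif was held by 7.81% of these and by 2.26% of all 32851 promoters, and the ETS motif by 4.69% and 2.88%. The full response element was held by 6.25% and 1.55%, its short form by 29.7% and 17.8%, and the RFX motif by 7.81% and 10.4%.

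The summed level of the 70 genes was highest in the spermatocyte cluster Sc2 and lowest in Sd10, in both libraries. In WT it was 31354 CPM in Sg, 29844 in Sc1, 45623 in Sc2, 36030.2 in Sd1, 33709 in Sd2, 26379 in Sd3, 17238 in Sd4, 9426 in Sd5, 7453 in Sd6, 5699 in Sd7, 4474 in Sd8, 4289 in Sd9 and 3221 in Sd10. In KO the same clusters gave 30076, 28120, 44449, 34679, 31855, 25761, 16165, 9093, 7359.5, 5764, 4558, 4821 and 3181 CPM. The fall from Sc2 to Sd10 was 14.16-fold in WT and 13.97-fold in KO, or -3.82 (95% interval -3.87 to -3.78) and -3.81 (-3.84 to -3.77) on the log2 scale. Counted per cell, an Sc2 cell held 664.6 UMIs of these genes in WT and an Sd10 cell 21.9. In WT, 63 of 69 genes with 50 or more UMIs fell at least 4-fold from Sc2 to Sd10, against 68.4% of all matrix rows, and in KO 65 of 69, against 67.0%. The median log2 difference between Sd10 and Sc2 was -4.32 over these genes and -3.44 over all rows in WT, and -4.19 and -3.36 in KO.

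**Figure D1:**
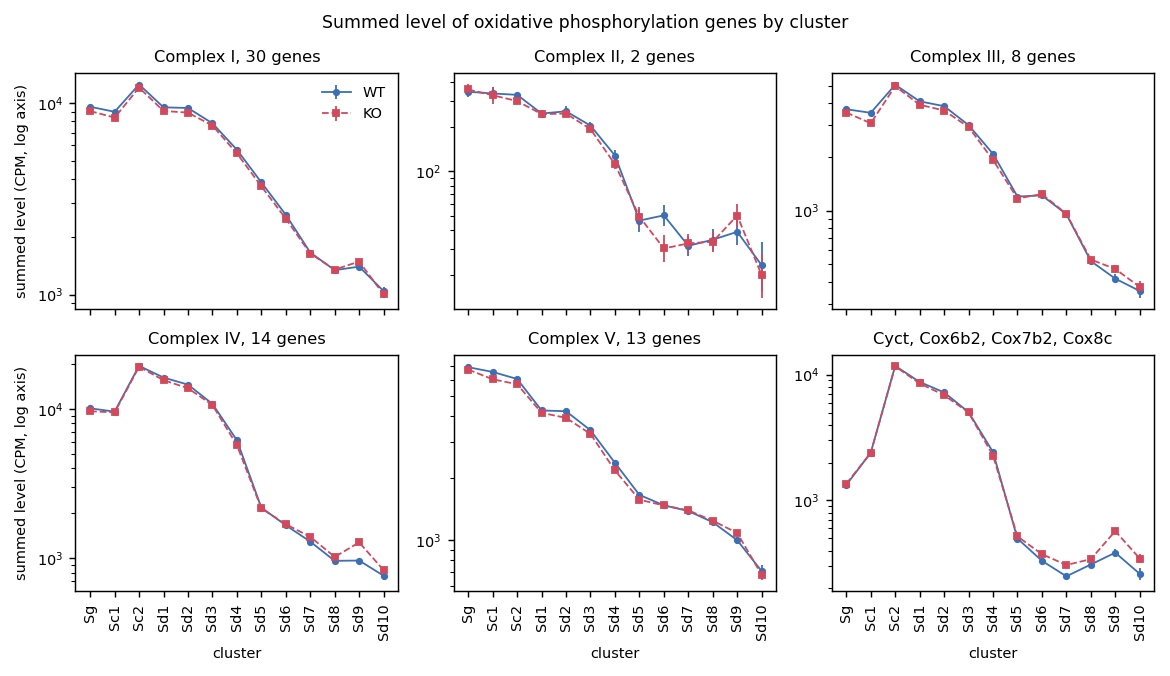
Summed CPM (log axis) of the genes of complexes I to V and of the 4 testis isoforms in the 13 clusters of WT (circles) and KO (squares), with exact 95% Poisson intervals. Complexes I, III and IV and the testis isoforms are highest in Sc2, complexes II and V in the clusters before it, and the testis isoforms lie higher in KO than in WT from Sd6 to Sd10.

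The complexes did not follow the same course. Complex IV, cytochrome c oxidase, rose 1.93-fold from Sg to Sc2 in WT and 1.99-fold in KO. Without its testis isoforms Cox6b2, Cox7b2 and Cox8c, the other 11 genes of complex IV stood at 8919 CPM in Sg and 8993 in Sc2 of WT (1.01-fold). In KO they stood at 8472 and 8802 CPM (1.04-fold), so that the net rise of the sum lay in the 3 isoforms. Single genes among the 11 moved both ways: in WT Cox7a2 rose from 912 to 1700.4 CPM, while Cox6a1 fell from 1261 to 761. Complex I rose 1.31-fold in WT and 1.33-fold in KO. Complex V was instead lower in Sc2 than in Sg, at 87.7% of its Sg level in WT and 84.9% in KO. The 2 usable genes of complex II, Sdha and Sdhb, which encode its catalytic subunits, summed to 344 CPM in Sg and 328 in Sc2 of WT. The 4 testis isoforms Cox6b2, Cox7b2, Cox8c and Cyct together stood 8.84-fold higher in Sc2 than in Sg in WT and 8.60-fold in KO, and the other 66 genes 1.13-fold and 1.14-fold. From Sc2 to Sd10 the fall was 25.5-fold for complex IV (17.3-fold without the isoforms), 14.2-fold for complexes II and III, 12.0-fold for complex I and 8.53-fold for complex V in WT. In KO it was 23.1-fold, 15.0-fold and 13.3-fold, 12.0-fold and 8.38-fold in the same order.

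Single genes peaked in few clusters. In WT, 22 of the 70 genes were highest in Sg, 13 in Sc1, 25 in Sc2, 4 in Sd1, 5 in Sd2 and 1 in Sd5. In KO the counts were 24, 8, 27, 6, 4 and 1, and 62 genes peaked in the same cluster in both libraries. Of all matrix rows with 50 or more UMIs, 11.4% in WT and 11.8% in KO were highest in Sc2, 18.4% and 18.5% in Sg, and 16.6% and 15.5% in Sc1. By complex, 14 of the 30 genes of complex I, 4 of the 8 of complex III and 5 of the 14 of complex IV were highest in Sc2 in WT, while 8 of the 13 genes of complex V peaked in Sg and 4 in Sc1. Among the most abundant genes, Ndufc1, a membrane arm subunit of complex I, rose from 458 CPM in Sg to 1574 in Sc2 of WT and from 497 to 1642 in KO. Uqcrq, a small subunit of complex III, rose from 647 to 2035 CPM in WT and from 695 to 2092 in KO. Atp5e, the epsilon subunit of ATP synthase, was at 840 CPM in Sg, 1017 in Sc1 and 846 in Sc2 of WT. It was at 805, 955 and 833 CPM in KO. Sdhb, the iron-sulfur subunit of complex II, was at 243 CPM in Sg and 230 in Sc2 of WT, and Sdha, the flavoprotein subunit, at 101 and 97.6 CPM.

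A few genes peaked after Sc2 in WT and are described here after their values were seen. Cox7a2 and Cox5a of complex IV, Ndufa12 of complex I and Uqcc2 were highest in Sd1, and Ndufa6 and Ndufa7 of complex I, Uqcrfs1, Ndufa4l2 and Atp5j in Sd2. Cox7a2 stood at 912 CPM in Sg, 1700.4 in Sc2, 1986 in Sd1 and 167 in Sd10 of WT, and at 877, 1719, 1823 and 175 CPM in KO. Ndufa7 stood at 728, 864, 939 and 55.1 CPM in WT with a peak of 1063 in Sd2, and at 643, 815, 868 and 51.1 CPM in KO with a peak of 939.9 in Sd2. The alpha and beta subunits of ATP synthase belonged to the early group. Atp5a1, its alpha subunit, fell from 418 CPM in Sg to 270.5 in Sc2 and 112.5 in Sd1 of WT, and from 414 to 227 and 114 CPM in KO. Atp5b, its beta subunit, held on longer, with 542 CPM in Sg, 473 in Sc2, 403 in Sd1, 276 in Sd5 and 14.4 in Sd10 of WT. In KO it stood at 521, 408, 356, 241 and 17.0 CPM.

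**Figure D2:**
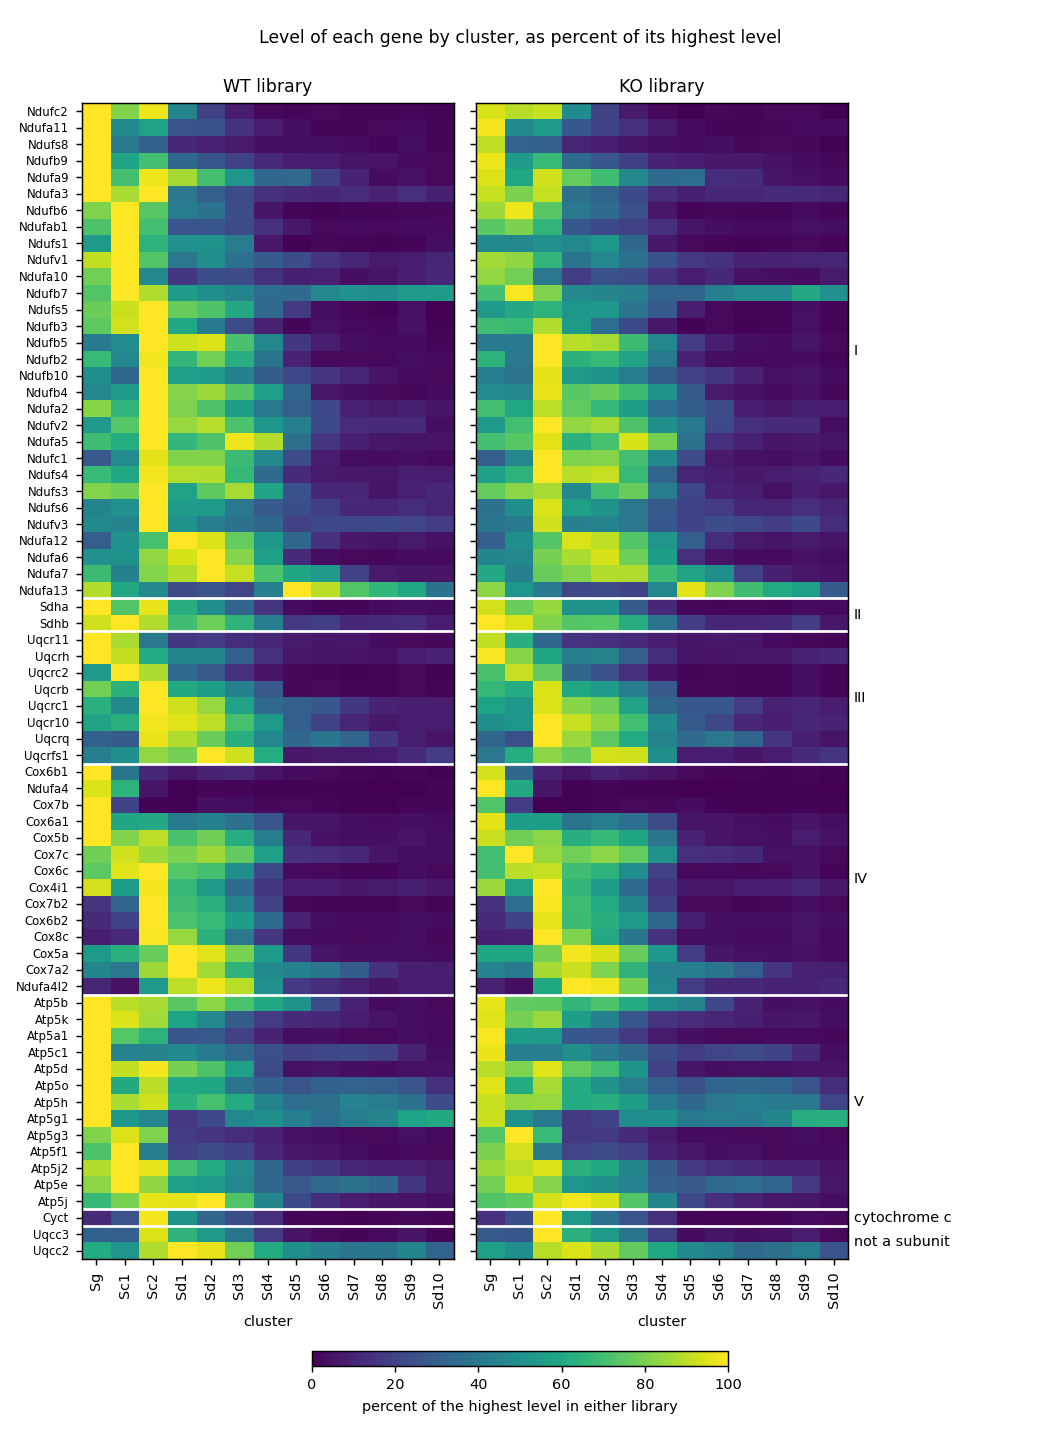
Level of each of the 70 genes (rows, grouped by complex) in the 13 clusters of the WT and KO libraries (columns), as percent of the gene's highest level in either library. Most genes are brightest between Sg and Sd2 and dark in Sd9 and Sd10, while Ndufa13, Ndufb7, Atp5g1 and Uqcc2 stay bright in late spermatids.

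At the Sg to Sc2 step, transcripts of complex IV subunits shifted from the version of other tissues toward the testis version. Cox6b1, a subunit on the outer face of the complex, fell in WT from 587 CPM in Sg to 227 in Sc1, 66.0 in Sc2 and 37.6 in Sd1. In KO it fell from 546 to 198, 57.2 and 33.1 CPM. Its testis version Cox6b2 rose over the same clusters in WT, from 302 to 499, 2463 and 1765 CPM, and in KO from 297 to 498, 2370 and 1687 CPM. Of the UMIs of both genes, Cox6b2 held 34.0% in Sg of WT (95% Clopper-Pearson interval 31.5 to 36.5), 68.7% in Sc1 (65.2 to 72.0) and 97.4% in Sc2 (97.2 to 97.6). In KO its share was 35.2%, 71.6% and 97.6%. The intervals of WT and KO overlapped in each of these clusters. Cox6b1 was thus a minor transcript in Sc2, where 244 of 488 WT cells had at least 1 UMI of both genes while the other 244 had Cox6b2 alone.

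Cox7b and Cox7b2, which encode a small membrane subunit of complex IV, changed more fully. X-linked Cox7b was at 88.3 CPM in Sg of WT, from 145 UMIs, at 17.6 CPM in Sc1 and at 0.844 CPM in Sc2, from 6 UMIs. In KO it was at 64.2, 16.0 and 0.0786 CPM, the last from 1 UMI. Cox7b2 rose from 447 CPM in Sg to 948 in Sc1 and 2922 in Sc2 of WT, and from 420.5 to 1067 and 2894 CPM in KO. Cox7b2 held 83.5% of the UMIs of the pair in Sg of WT (80.9 to 85.9) and 99.97% in Sc2 (99.94 to 99.99). The shares of Cox6b2 and Cox7b2 in Sg include any free RNA of these genes, which cannot be told apart there. Cox7b fell with the other X-linked genes: 78 of 78 with 50 or more UMIs in Sg and Sc2 of WT were lower in Sc2, with a median log2 difference of -2.08, against 0.02 over 4148 autosomal genes. In KO 77 of 77 were lower, with a median of -2.54 against -0.04. Meiotic spermatocytes are known to silence the X chromosome, and whether this set the level of Cox7b was not tested.

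The testis isoforms without a usable partner followed the same course. Cox8c, of the smallest subunit of complex IV, had the most UMIs of the 70 genes when all WT cells were added up, 85188. It was not the highest in every cluster: in Sg of WT, Cox4i1 stood at 1626 CPM. Cox8c stood at 421 CPM in Sg, 612 in Sc1, 5051 in Sc2 and 4283 in Sd1 of WT. In KO it stood at 453, 506, 5076 and 4096 CPM. Cyct, the testis cytochrome c, stood at 158, 336, 1301 and 684 CPM in WT and at 186, 318, 1321 and 715 in KO. In WT, Sg held 12.1% of the Sc2 level of Cyct, 12.3% of that of Cox6b2, 15.3% of that of Cox7b2 and 8.34% of that of Cox8c. These shares lie near the 13.5% of Prm1 and the 11.1% of Spo11, a gene of meiotic recombination, and above the 3.32% of Piwil1. Expression of the 4 isoforms in Sg can therefore not be told apart from free RNA. After each cell was thinned to 3000 UMIs, Cox8c was found in 32.9% of WT cells of Sg and in 100% of those of Sc2, and in 46.6% and 100% before thinning. The median depths were 6133 UMIs per cell in Sg and 11862 in Sc2. Among WT cells of Sc2, 99.8% had a thinned UMI of Cox7b2, and 0.205% one of Cox7b.

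**Figure D3:**
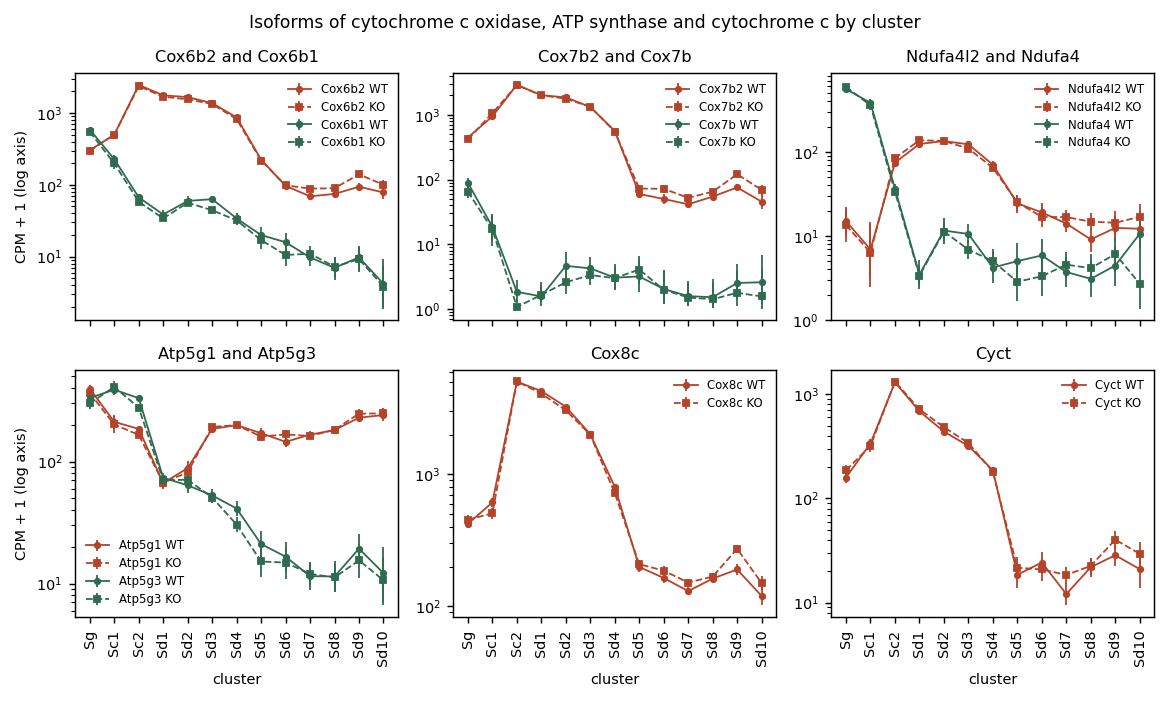
CPM + 1 (log axis) of 4 pairs of isoforms and of Cox8c and Cyct in the 13 clusters, with WT as circles on solid lines, KO as squares on dashed lines and exact 95% Poisson intervals. Cox6b1, Cox7b and Ndufa4 fall between Sg and Sc2 while Cox6b2, Cox7b2 and Ndufa4l2 rise, and Atp5g1 stays up in Sd5 to Sd10 while Atp5g3 falls.

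After Sc2 the levels of the testis isoforms fell, with a steep step between Sd4 and Sd5. In WT their sum fell from 11737 CPM in Sc2 to 2424 in Sd4 and 498 in Sd5, and in KO from 11662 to 2276 and 518. The step from Sd4 to Sd5 was 4.87-fold in WT and 4.40-fold in KO, against 1.66-fold and 1.62-fold for the sum of the other 66 genes. It was not particular to the isoforms: Uqcrb of complex III fell from 165 to 13.1 CPM in WT and from 166 to 12.9 in KO, Uqcrfs1 from 209.8 to 22.3 and from 169.6 to 26.5, and Cox6c of complex IV from 362 to 50.01 and from 324 to 45.3. Of the 4 isoforms, Cyct fell from 185 to 17.5 CPM in WT and from 179 to 20.6 in KO. Cox7b2 fell from 564.5 to 59.1 CPM in WT and from 554 to 71.7 in KO. The log2 differences of these 2 genes in WT, -3.39 (-3.85 to -2.98) and -3.25 (-3.49 to -3.025), had overlapping intervals. Cox8c fell from 807 to 198 CPM in WT and from 720.5 to 208 in KO, and Cox6b2 from 868 to 224 and from 821.5 to 217 CPM. From Sd6 to Sd10 the sum of the 4 genes stayed between 249.5 and 385 CPM in WT, 2.22% of the Sc2 level in Sd10. Of their own highest level, the spermatocyte markers kept in Sd10 of WT 0.749% (Sycp3), 1.35% (Piwil1), 1.61% (Sycp1), 1.68% (Spo11) and 2.24% (Ccna1), and Stra8 0.168%. Free RNA and a remnant of the cells' own transcripts cannot be told apart at this level.

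Another pair changed place a little later. Ndufa4, a subunit that copurifies with complex I and was later assigned to complex IV, fell in WT from 557 CPM in Sg to 382 in Sc1, 35.6 in Sc2 and 2.46 in Sd1. In KO it fell from 592 to 357, 32.5 and 2.37 CPM. Its paralog Ndufa4l2, known as a hypoxia-induced gene, rose from 14.01 CPM in Sg and 5.88 in Sc1 of WT to 73.4 in Sc2, 123 in Sd1 and 133 in Sd2, and in KO from 12.4 and 5.34 to 82.9, 137 and 134. Ndufa4l2 held 2.45% of the UMIs of the pair in Sg of WT (1.56 to 3.66), 67.4% in Sc2 (63.9 to 70.7) and 98.04% in Sd1 (96.7 to 98.95). In KO the shares were 2.06%, 71.8% and 98.3%. With a summit of 133 CPM in WT, Ndufa4l2 did not come near the 557 CPM of Ndufa4 in Sg.

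The genes of the c subunit of ATP synthase changed last. Atp5g1, Atp5g2 and Atp5g3 encode the same mature protein with different import sequences, and Atp5g2 is not analysed here. Atp5g1 was at 394 CPM in Sg, 184 in Sc2, 65.6 in Sd1, 184 in Sd3 and 239.5 in Sd10 of WT, and at 362.5, 164, 66.0, 191 and 247 CPM in KO. Atp5g3 was at 331, 329.6, 72.6, 51.8 and 11.2 CPM in WT and at 298, 276, 69.1, 49.7 and 9.65 in KO. Both thus fell from Sc2 to Sd1 and Atp5g1 alone came back. The share of Atp5g1 rose from 35.8% in Sc2 of WT (34.25 to 37.4) to 95.5% in Sd10 (92.6 to 97.5), and in KO from 37.3% to 96.2%.

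A few genes fell less than the others up to the late spermatids. Between Sg and Sd10 of WT, the smallest falls among genes with 50 or more UMIs were those of Ndufb7 (log2 difference -0.41, interval -0.67 to -0.16), Atp5g1 (-0.72, -0.92 to -0.52), Uqcc2 (-0.93, -1.10 to -0.76), Ndufa13 (-1.25, -1.44 to -1.07) and Uqcrfs1 (-1.27, -1.67 to -0.89). In KO the same genes gave -0.47, -0.55, -1.16, -1.52 and -1.37. Ndufa13, an accessory subunit of complex I also known as GRIM-19, was the only gene with its highest level after Sd2: it fell from 604 CPM in Sg to 143 in Sd3 of WT, rose to 681.5 in Sd5 and stood at 254 in Sd10. In KO it went from 563 to 139, 653 and 196 CPM. Ndufb7, a membrane arm subunit of complex I, stayed between 105.5 and 302 CPM in all WT clusters and between 97.0 and 299 in KO. Uqcc2, an assembly factor of complex III, stayed between 309 and 953 CPM in WT and between 242 and 901 in KO. Uqcrfs1, the Rieske iron-sulfur protein of complex III, was the exception in shape, with 209.8 CPM in Sd4, 22.3 in Sd5 and 59.1 in Sd10 of WT. It was at 169.6, 26.5 and 51.6 CPM in KO.

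Other subunits of the same complexes were almost gone. Ndufs5, an accessory subunit of complex I, fell from 67.0 CPM in Sg to 0 of 1252689 UMIs in Sd10 of WT. This count of 0 allows up to 2.40 CPM at a limit of 3 counts, which makes it at least 28.0-fold lower. Cox6b1 fell by 7.38 on the log2 scale between Sg and Sd10 of WT (interval -9.40 to -6.16), from 964 to 4 UMIs. Ndufc2, next to Ndufc1 in the membrane arm, differed by -6.28 (-8.31 to -5.06), Ndufs8, a core iron-sulfur subunit, by -6.06 (-7.81 to -4.95) and Ndufa11 by -6.00 (-7.01 to -5.24). In KO the log2 differences of the last 3 were -7.01, -7.02 and -4.88. Within complex I alone, the level in Sd10 of WT thus ranged from 0 CPM for Ndufs5 to 254 for Ndufa13.

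Mitochondrially encoded mRNA fell earlier than the nuclear genes. The 13 mitochondrial mRNAs made up 1.41% of UMIs in Sg, 1.53% in Sc1, 0.682% in Sc2 and 0.017% in Sd4 of WT, and 1.35%, 1.51%, 0.624% and 0.015% in KO. These sums rest on mt-Nd1, mt-Nd2, mt-Nd4, mt-Nd5, mt-Cytb and mt-Co1, since mt-Co2, mt-Co3, mt-Atp6, mt-Atp8 and mt-Nd4l were hardly counted at all, with 0 to 4.26 CPM in Sg of WT beside 4306 for mt-Nd1. Nuclear genes of complex I had 1.04 UMIs per UMI of mitochondrial complex I genes in Sg of WT, 2.91 in Sc2 and 49.2 in Sd4, and 1.04, 3.10 and 56.3 in KO. After Sd4 this ratio came down again, to 4.05 in Sd9 of WT and 4.34 in Sd9 of KO.

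Between the genotypes, the courses were close and the differences within a cluster small. The 13 clusters of a genotype came from 1 library and are not replicates. Over them, the correlation between the WT and KO levels of a gene had a lowest value of 0.917 among the 70 genes. That gene, Ndufs1, the largest core subunit of complex I, stood at 103.8 CPM in Sc1 of WT (106 UMIs) and 48.1 in KO (36 UMIs), and at 67.0 and 52.5 CPM in Sc2. From Sg to Sd5 the summed level was slightly lower in KO than in WT in each of 8 clusters, with log2 differences from -0.09 in Sd4 to -0.03 in Sd3, each with an interval below 0. The median log2 difference of the genes read was -0.08 in Sg, -0.09 in Sc1, -0.07 in Sc2, -0.06 in Sd1, -0.09 in Sd2, -0.05 in Sd3, -0.10 in Sd4 and -0.07 in Sd5. Over all matrix rows it lay between -0.05 and 0.02 in these clusters. In Sd6 to Sd8 the intervals of the summed difference included 0, at -0.02, 0.02 and 0.03.

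**Figure D4:**
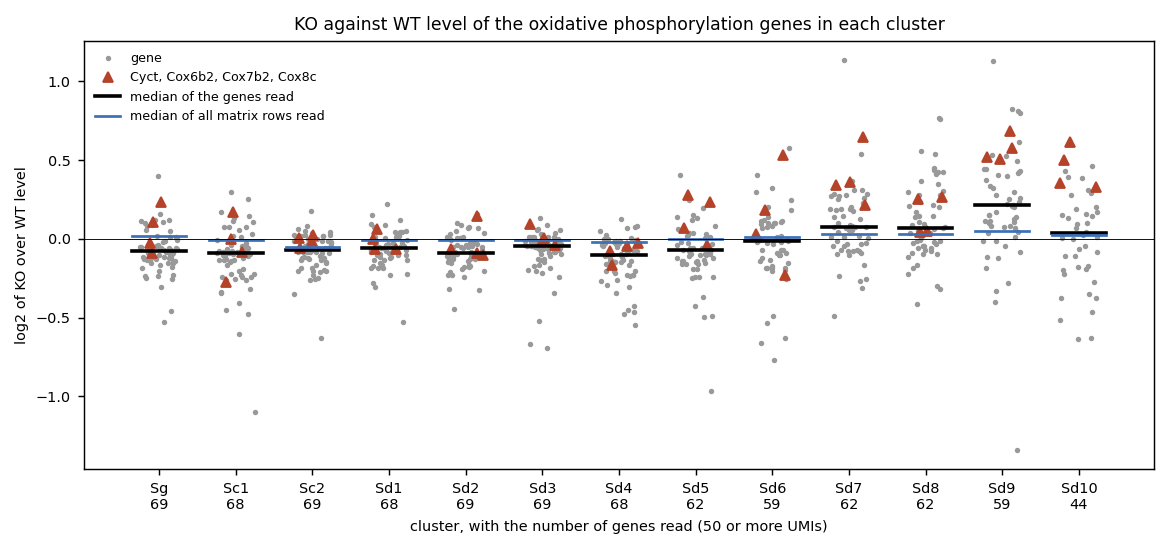
log2 of the KO over the WT level of each gene with 50 or more UMIs, by cluster (grey points; triangles for Cyct, Cox6b2, Cox7b2 and Cox8c), with the median of the genes (black) and of all matrix rows read (blue). The black line lies below 0 from Sg to Sd6 and above the blue line in Sd9, where 48 of 59 genes are above 0.

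Ndufs5 was singled out after its values were seen. It was at 67.0 CPM in Sg of WT against 46.3 in KO, 79.3 against 52.1 in Sc1, 86.2 against 55.65 in Sc2, 66.2 against 45.8 in Sd1, 62.5 against 45.9 in Sd2, 52.0 against 32.7 in Sd3, 29.7 against 24.7 in Sd4 and 14.6 against 7.39 in Sd5. KO was lower in all 8 clusters in which the gene could be read, with an interval below 0 in 7 of them, and in Sc2 the log2 difference was -0.63 (-0.79 to -0.47). It was the 1 gene of 63 read in 8 or more clusters that was lower in KO in every one, which is no larger a share than the 2.62% of all matrix rows for which this held.

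In Sd9 the genes were higher in KO. The summed level was 4289 CPM in WT and 4821 in KO, a log2 difference of 0.17 (interval 0.13 to 0.21), and 0.12 (0.08 to 0.16) without the 4 testis isoforms. The median over the 59 of 70 genes with 50 or more UMIs was 0.22, against 0.05 over all 4108 rows read. KO was higher for 48 of 59 genes, against 57.5% of all rows. Past 1.5-fold, 6 of 59 genes were higher in KO, against 9.13% of all rows, and 1 was lower, against 2.82%. At that size the share was close to that of all rows. The 6 genes were Ndufb4, Ndufb5, Ndufb10, Atp5k, Cox7b2 and Uqcrb. By complex the log2 difference was 0.40 for complex IV (0.33 to 0.48; 0.29 without its 3 testis isoforms), 0.18 for complex III (0.06 to 0.30), 0.12 for complex V (0.04 to 0.19), 0.09 for complex I (0.02 to 0.15) and 0.37 for complex II (-0.02 to 0.76). With 100 or more UMIs, the highest were Ndufb5, of the membrane arm of complex I, with 52 UMIs (19.8 CPM) in WT and 90 (35.3 CPM) in KO, Atp5k, subunit e of ATP synthase, with 57 (21.8 CPM) and 97 (38.0 CPM), and Cox7b2 with 196 (74.8 CPM) and 307 (120.3 CPM). Their log2 differences were 0.82 (0.32 to 1.35), 0.80 (0.32 to 1.30) and 0.68 (0.42 to 0.95). The lowest were Uqcr11 of complex III at -0.28 (-0.84 to 0.26), Ndufa3 of complex I at -0.18 (-0.51 to 0.14) and Uqcc2 at -0.11 (-0.24 to 0.01), whose intervals include 0. The gene past 1.5-fold lower was Ndufa10, with 45 UMIs in WT and 17 in KO. Beside these values, the hemoglobin gene Hbb-bs stood at 266 CPM in Sd9 of WT and 5.49 in KO. The 5 spermatocyte markers summed to 135 CPM in WT and 154 in KO, and Stra8 stood at 7.25 and 14.9 CPM. Cells of Sc2 to Sd3 made up 35.3% of the WT and 44.8% of the KO library. The part of hemoglobin RNA and of RNA or cells of earlier stages in the differences was not tested.

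In Sd10, the last of the spermatid clusters, the summed level was 3221 CPM in WT and 3181 in KO. The log2 difference was -0.02 (-0.08 to 0.04). This sum combined 0.40 for the 4 testis isoforms with -0.06 (-0.12 to -0.0005) for the other 66 genes, whose interval included 0 without the cells poor in Prm1 and Prm2 (-0.05, -0.11 to 0.02). The median over the 44 of 70 genes read was 0.03 against 0.03 over all 2762 rows. Past 1.5-fold, 1 of 44 genes was higher in KO, Cox7b2, against 9.88% of all rows, and 2 were lower, Cox7c and Ndufa10 (29 UMIs in WT and 26 in KO, with an interval that included 0), against 4.63%. With 100 or more UMIs the highest were Cox7b2, with 56 UMIs (44.7 CPM) in WT and 121 (68.7 CPM) in KO, Ndufa2, with 55 (43.9 CPM) and 107 (60.7 CPM), and Ndufs4, with 40 (31.9 CPM) and 76 (43.1 CPM). Their log2 differences were 0.62 (0.15 to 1.10), 0.46 (-0.01 to 0.96) and 0.43 (-0.14 to 1.02). Cox7c, a small subunit of complex IV, was the lowest, with 64 UMIs (51.1 CPM) and 58 (32.9 CPM), a difference of -0.63 (-1.17 to -0.10), followed by Atp5j2 at -0.51 (-1.08 to 0.04) and Cox6c at -0.46 (-1.03 to 0.10). Among the genes with the smallest falls from Sg, Ndufa13 was at 254 CPM in WT and 196 in KO (-0.37, -0.60 to -0.15). Uqcc2 was at 309 and 242 (-0.35, -0.55 to -0.15), while Ndufb7 differed by -0.11 (-0.38 to 0.16) and Atp5g1 by 0.04 (-0.17 to 0.26). In the same cluster the mitochondrial mRNAs were at 387 CPM in WT and 182 in KO, a log2 difference of -1.09 (-1.30 to -0.89), so that complex I had 3.91 nuclear UMIs per mitochondrial UMI in WT and 8.36 in KO. They were also lower in KO in Sd5 (-0.69, -0.86 to -0.51), Sd6 (-0.70, -0.87 to -0.53), Sd7 (-0.30, -0.44 to -0.17) and Sd8 (-0.26, -0.38 to -0.13), while in Sd9 the difference was 0.02 (-0.09 to 0.13) and from Sg to Sd4 it lay between -0.16 in Sd4 and 0.15 in Sd3. Cd74, a macrophage gene, stood at 59.9 CPM in Sd10 of WT and 0.568 in KO. Without the cells poor in Prm1 and Prm2, Cd74 had 0 UMIs in Sd10 of WT and 1 in KO, and the mitochondrial difference was -0.81 (-1.04 to -0.59). The part of macrophage RNA in this difference was not tested.

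**Figure D5:**
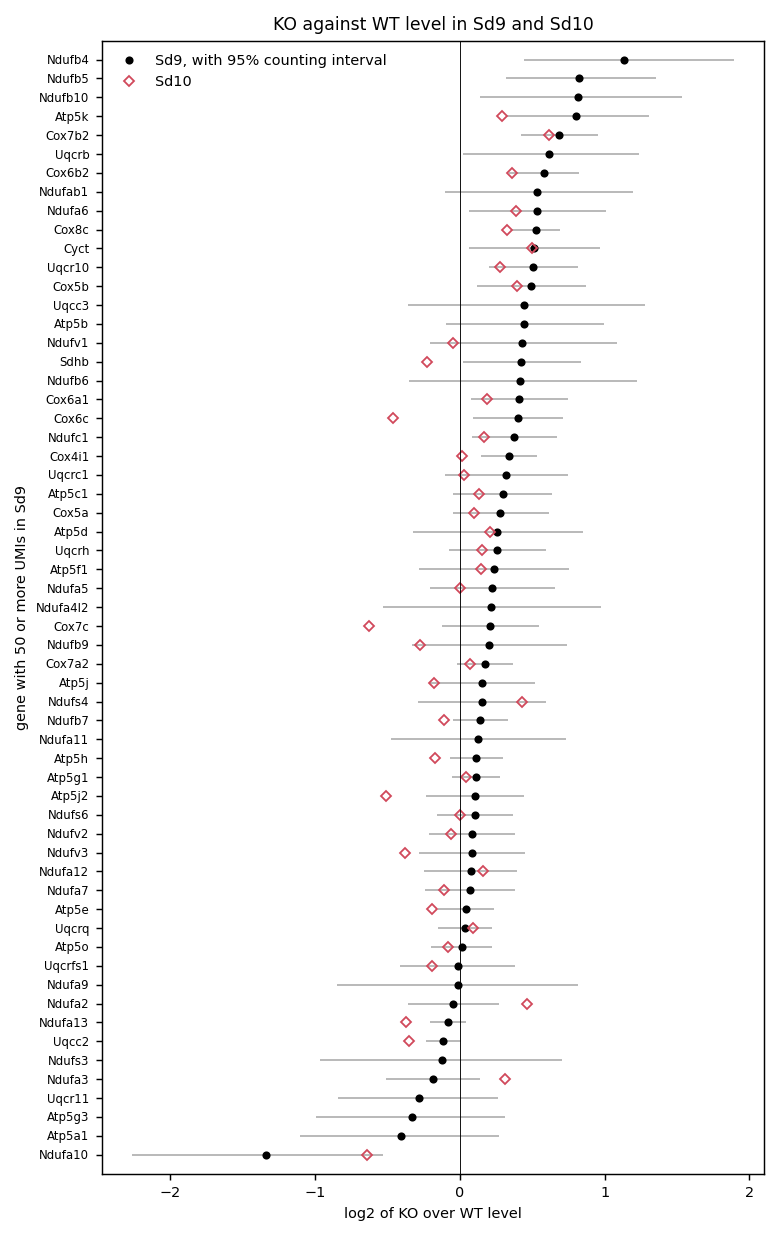
log2 of the KO over the WT level of the 59 genes with 50 or more UMIs in Sd9 (black points with exact 95% counting intervals, in order of their value) and of those among them with 50 or more in Sd10 (open diamonds). The testis isoforms Cox7b2, Cox6b2, Cox8c and Cyct lie to the right in both clusters, and Ndufa10 to the left in Sd9.

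The 4 testis isoforms were higher in KO in late spermatids as a group. Their summed level was 331 CPM in WT and 374 in KO in Sd6, 249 and 307 in Sd7, 310 and 342 in Sd8, 385 and 571 in Sd9, and 261 and 346 in Sd10. The log2 differences were 0.18, 0.30, 0.14, 0.57 (0.45 to 0.69) and 0.40 (0.21 to 0.60), each with an interval above 0. In Sc2, where their level was highest, it was -0.01 (-0.02 to 0.0029). The sum was slightly lower in KO in Sd1 (-0.04), Sd2 (-0.07) and Sd4 (-0.09), each with an interval below 0. In Sd9 each of the 4 was higher: Cyct by 0.51 (0.06 to 0.97), Cox8c by 0.52 (0.35 to 0.69), Cox6b2 by 0.58 (0.34 to 0.82) and Cox7b2 by 0.68. In Sd10 they gave 0.50, 0.33, 0.36 and 0.62, where the intervals of Cyct and Cox6b2 included 0. All 4 were also higher in KO in Sd7. In Sd6, however, Cyct was lower in KO (-0.23, -0.76 to 0.29) and Cox6b2 differed by 0.03. In Sd8 Cyct differed by 0.04 and Cox8c by 0.05. Other values moved with this result. Over all cells of a library the level of the 4 genes was higher in KO by 0.29 on the log2 scale, at 5247 against 4294 CPM, and cells of Sc2 to Sd3 made up 44.8% of the KO and 35.3% of the WT library. The 5 spermatocyte markers, none of them at 0, summed to 154 CPM in Sd9 of KO and 135 in WT, and to 107 and 113 CPM in Sd10. In Sd9 all 5 were higher in KO. In Sd10 only Ccna1, a cyclin of meiotic cells, was higher, at 11.2 CPM in WT (14 UMIs) and 23.8 in KO (42 UMIs), while the other 4 were lower, with Sycp1 at 67.1 and 57.3 CPM, Sycp3 at 25.55 and 20.4, Piwil1 at 7.19 and 3.41 and Spo11 at 2.40 and 1.70. Markers of other stages moved too. Stra8 stood at 7.25 CPM in WT and 14.9 in KO in Sd9, and at 7.19 and 1.70 in Sd10. Of the spermatid markers, Acrv1 stood in Sd10 at 11.97 and 19.9 CPM, Hemgn at 17.6 and 10.2, and Tnp1 at 2313 and 1579.8 (log2 difference -0.55), against 7903 and 7507 for Tnp1 in Sd9. The 2 red blood cell markers summed to 137 CPM in WT and 29.05 in KO in Sd6, 161 and 6.26 in Sd7, 5.74 and 615 in Sd8, 437 and 9.01 in Sd9, and 16.8 and 6.81 in Sd10. The part of red blood cell RNA, of free RNA and of cells of earlier stages in the difference was not tested. Without the cells poor in Prm1 and Prm2 the log2 difference of the 4 genes was 0.56 in Sd9 and 0.49 in Sd10.

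Other mitochondrial genes were read from lists compiled by hand. Of 46 assembly factors of the complexes 16 were usable, and in Sd9 8 could be read, with 1 past 1.5-fold higher in KO (Ndufaf2, of complex I, 19.1 CPM in WT and 32.1 in KO), 1 lower (Coa5, whose interval included 0) and a median of -0.08. In Sd10 1 of 4 was higher (Cox20, with an interval that included 0) and 0 lower. Of all rows, 9.13% were higher and 2.82% lower in Sd9, and 9.88% and 4.63% in Sd10, and the lists have too few genes read to set against these shares. Of the 19 genes of the citrate cycle and pyruvate dehydrogenase 8 were usable and 3 read. The testis subunit Pdha2 was the 1 past 1.5-fold, higher in KO in Sd9 (21.0 and 32.5 CPM) and Sd10 (20.0 and 33.5 CPM), and none was lower. Of 12 carriers and porins 6 were usable: Vdac2, a channel of the outer membrane, was the 1 of 4 past 1.5-fold in Sd9 (28.2 CPM in WT, 44.7 in KO), and Vdac3 the 1 of 3 in Sd10, with an interval that included 0. Of 12 regulators 3 were usable and none of the 2 read was past 1.5-fold. The course of Tfam, the packaging and transcription factor of mitochondrial DNA, was unlike that of most subunits in WT. It was at 258 CPM in Sg, 255 in Sc1, 59.5 in Sc2, 1386 in Sd5, 1743 in Sd7 and 139.7 in Sd10. UMI counts per gene do not show which form of the Tfam transcript was present. Of the mitochondrial mRNAs 6 were read. Past 1.5-fold, 0 of them were higher or lower in KO in Sd9, and in Sd10 5 were lower, against 4.63% of all rows. The exception was mt-Co1, at 31.9 CPM in WT and 24.97 in KO.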

How the data were processed

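Testis cells of WT and KO mice were captured with barcoded beads and UMIs (GEXSCOPE, Singleron), 1 pooled library per genotype. The deposited matrix held raw UMI counts per gene row and cell, and the deposited cell table held each cell's library, cluster, UMI total and percent of mitochondrial UMIs. The submitters' processing notes name FastQC 0.11.7, fastp 1, STAR 2.5.3a, featureCounts 1.6.2, Seurat 3.2.3 and the mm10 genome, and the authors had filtered the cells before deposit.

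The 25065 symbols were placed on the 26758 matrix rows in order, with 30 anchors from the mitochondrial genes, whose sums gave the deposited percent in 12408 of 12408 cells. Only rows seen in under 5 cells were allowed to have no symbol. Symbols with 1 possible row (5476) were used, and they held 86.87% of UMIs. Members and gene lists were chosen with earlier results of these data known.

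For each cluster of a library the UMIs of all cells were added up and given as CPM. Differences between libraries are log2 ratios of CPM, with a prior of 1 UMI for single genes, for rows with 50 or more UMIs in WT and KO together. Intervals (95%) are exact: Poisson for levels, Clopper-Pearson for shares, conditional binomial for ratios. With 1 library per genotype no test was made, and 1.5-fold served as the threshold. The clusters were made from these cells, so that differences between clusters are descriptions. Named genes were those of isoform pairs, complex II, the most abundant of each complex, the 3 highest and 3 lowest ratios in Sd9 and Sd10 with 100 or more UMIs, and the 5 highest and 5 lowest ratios of Sd10 to Sg in WT. No doublet caller was run, and leaving out the 5% of cells with most UMIs was an alternative. Cells were thinned to 3000 UMIs for shares of cells, and 0 cells had fewer. Other alternatives were the CPM total, the mean over cells, the UMI minimum, the prior, the fold, centring and the matching rule. Python 3.11.15, numpy 2.4.6, scipy 1.17.1, pandas 2.3.3 and matplotlib 3.10.9 were used, and the code was tested on simulated data. Promoters came from RefSeq (GRCm38.p6).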

Additional observations from a re-analysis of the deposited data

Results flagged for a closer look

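The summed log2 difference between KO and WT of the 70 genes had opposite signs in different clusters. It was 0.17 in Sd9, with an interval above 0. It was -0.06 in Sg, -0.09 in Sc1, -0.04 in Sc2, -0.06 in Sd1, -0.08 in Sd2, -0.03 in Sd3, -0.09 in Sd4 and -0.05 in Sd5, each with an interval below 0. With 1 library per genotype the difference between these clusters was not tested.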

How the results depend on the processing

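No paired analysis was possible because the labels give 1 library per genotype and no replicate numbers. Of 94 values recomputed under the alternatives, 68 moved by less than their interval or kept their count within 1.5 times, 26 moved and 0 changed sign as called values. In Sd9 the summed log2 difference stayed between 0.159 and 0.189 and the median between 0.141 and 0.274. In Sd10 the counts past 1.5-fold were small. The 1 gene higher in KO became 0 with thinned cells, with the strict matching, with 200 or more UMIs, with a prior of 10 UMIs and at 2-fold, 4 with 10 or more UMIs, 5 with no minimum and 3 without the cells poor in Prm1 and Prm2, an alternative chosen after seeing the data. The 2 genes lower became 1 with the mean of single-cell CPM, thinned cells, the prior of 10 or without those cells, 0 with 200 or more UMIs and at 2-fold, 7 with 10 or more UMIs and 11 with no minimum. The summed difference in Sd10 was -0.093 with thinned cells. The log2 level of Sd10 over Sc2 was -4.12 in WT and -4.11 in KO with the strict matching, and in KO -3.86 with thinned cells and -3.84 without the 5% of cells with most UMIs. The share of Cox6b2 in Sg of WT was 28.4% with the mean of single-cell CPM and 28.5% without the 5% of cells with most UMIs, and in Sc2 97.7% with thinned cells. That of Cox7b2 in Sg was 79.55% with thinned cells and 80% without the 5% of cells with most UMIs. The cause of these moves was not tested. The strict matching gives no value for the Cox7b2 pair. Sd9 and Sd10 are the shallowest clusters for these genes, with 11239 and 4035 of their UMIs in WT, which limits what can be read of single genes there.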
